A study of Mus musculus with 10 samples.

Results

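Of the 22180 genes measured in this comparison, 9 carry salt, chloride and fluid across the epithelium of the gut or signal to the proteins that do. They were taken by name: the sodium-hydrogen exchangers Slc9a3 and Slc9a2, the chloride channel Cftr, the anion exchangers Slc26a3 and Slc26a6, the basolateral ion cotransporter Slc12a2, the peptide hormones Guca2a and Guca2b, and their receptor Gucy2c. All 9 were measured, each by 1 probe set that carried no other gene symbol. The RNA was from mouse jejunum, the long middle stretch of the small bowel, in 5 samples labelled Fed Knockout and 5 labelled Fed Control. Knockout mice were Pcyt1aLoxP/LoxP;VilCreERT2, in which the villin promoter drives a tamoxifen-inducible Cre recombinase in the intestinal epithelium, and control mice were Pcyt1aLoxP/LoxP without Cre. Both groups were females of 10 to 12 weeks that had 5 days of tamoxifen. They ate high-fat food during 3 days, were fasted overnight and had the food back for 2 hours before a piece of 3 cm was frozen. Pcyt1a encodes the enzyme of the rate-limiting step of phosphatidylcholine synthesis. Only the knockout mice carried Cre, so active Cre and loss of Pcyt1a cannot be told apart. No separation of the epithelium from the rest of the gut wall is described, and villin is silent in muscle, nerve and immune cells.

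The gut moves water by moving salt. Villus cells absorb sodium through Slc9a3 and Slc9a2 and chloride through Slc26a3 and Slc26a6 in exchange for hydrogen and bicarbonate ions, while crypt cells load chloride through Slc12a2 and release it into the lumen through Cftr. Guanylin (Guca2a) and uroguanylin (Guca2b) are secreted into the lumen and bind the guanylate cyclase receptor Gucy2c. The cyclic GMP that it makes acts through the kinase Prkg2 to open Cftr and to inhibit Slc9a3, so that chloride and water are released and less sodium is absorbed.

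Pcyt1a itself was lower in all 5 knockout arrays. Its log2 intensity averaged 7.51 ± 0.16 (SD) over the knockouts and 9.22 ± 0.20 over the controls, with n = 5 each (limma adjusted p = 6.51e-05). Of the markers of the gut epithelium, 9 of 9 epithelial markers and 15 of 15 mature enterocyte genes lay outside the dimmest 30% of genes. The faintest of them, Tmprss15, averaged 5.19, close to the boundary of 4.92. Its difference had an SE of 0.84, so it varied widely between arrays, and its presence in every array was not shown. Knockout 1 and control 5 stood apart from the rest of their groups in several marker lists, and values without them are given beside the results that move with them. A list mean here centres every gene of the list on its 10-array average (log2) and then averages the genes within an array. For genes of the ileum, the last part of the small intestine, it was -0.64 in knockout 1 and 0.46 to 0.74 in the other knockouts. Controls spanned -0.65 to -0.06. Of 15 ileum genes 0 were called, with 13 higher and 2 lower in value in knockout. For the proximal intestine the list mean was 0.42 in knockout 1 and -0.66 to -0.23 in the other knockouts, against 0.05 to 0.59 in controls. Of its 12 genes 0 were called, with 1 higher and 11 lower in value. Whether the pieces came from different positions along the bowel was not tested. For Paneth cells, the antimicrobial cells of the crypt base, the list mean was -2.03 in control 5 and 0.08 to 0.87 in the other controls.

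The promoters of the guanylin and uroguanylin genes are shown because these ligands are neighbours in the genome and differed in how much they varied over the arrays. They lie on chromosome 4 with 0 other protein-coding genes between them, on opposite strands. The promoter of Slc26a3 is added for the motif it shares with Guca2b. Each sequence holds the 250 bases before the start of the gene's transcript, from RefSeq (GRCm38.p6), whose promoter table had an entry for 6 of the 9 genes. Shown are chr4:119637482-119637731 (+ strand) for Guca2a, chr4:119658946-119659195 (- strand) for Guca2b and chr12:31437969-31438218 (+ strand) for Slc26a3. Capitals mark matches to AGATAA, the core bound by GATA factors, or to GTTAAT, a core bound by HNF1 factors. Since both strands were searched, TTATCT also counts as AGATAA, and each line reads 5′ to 3′ on the gene's own strand.
Guca2a: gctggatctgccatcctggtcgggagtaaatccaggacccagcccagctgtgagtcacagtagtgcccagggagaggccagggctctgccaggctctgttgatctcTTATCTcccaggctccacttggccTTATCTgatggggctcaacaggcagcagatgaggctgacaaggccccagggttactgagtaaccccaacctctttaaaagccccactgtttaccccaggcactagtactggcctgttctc
Guca2b: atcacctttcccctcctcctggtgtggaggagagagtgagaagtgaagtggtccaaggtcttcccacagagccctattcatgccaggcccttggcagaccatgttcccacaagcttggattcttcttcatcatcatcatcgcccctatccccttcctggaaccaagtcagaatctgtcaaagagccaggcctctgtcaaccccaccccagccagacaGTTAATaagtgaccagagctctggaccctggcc
Slc26a3: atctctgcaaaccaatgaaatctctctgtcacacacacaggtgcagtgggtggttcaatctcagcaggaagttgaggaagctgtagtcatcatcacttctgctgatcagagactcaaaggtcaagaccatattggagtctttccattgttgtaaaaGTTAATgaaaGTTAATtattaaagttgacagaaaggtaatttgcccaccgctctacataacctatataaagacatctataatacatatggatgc
AGATAA had 2 matches in Guca2a, 144 and 120 bases before the start, and 0 in the promoters of the other 5 genes. Over 32851 promoters of this length, 9.99% held at least 1 match and 0.938% held 2 or more. GTTAAT had 1 match in Guca2b, 33 bases before the start, and 2 in Slc26a3, 94 and 84 bases before it, while 6.43% of all promoters held at least 1. The promoters of Slc9a3, Cftr and Slc26a6 held a match to neither. A match describes letters in this window and was not tested as a site.

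None of the 9 genes passed the test between knockout and control. By limma, 0 of 9 passed at an adjusted p under 0.05, against 0.343% of all genes (0.171% higher and 0.171% lower in knockout), and 0 of 9 had an unadjusted p under 0.05, against 12.1% of all genes. Their adjusted p-values ran from 0.505 for Slc26a6 to 0.965 for Slc12a2, and the groups overlapped in every one of them. Values were higher in knockout for 5 genes and lower for 4, with a median difference of 0.07 on the log2 scale against -3.54e-04 over all genes. In whole tissue, fewer cells of a type and less RNA per cell cannot be told apart. The plot of each array shows how far the 9 genes differed in their spread.

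**Figure D1:**
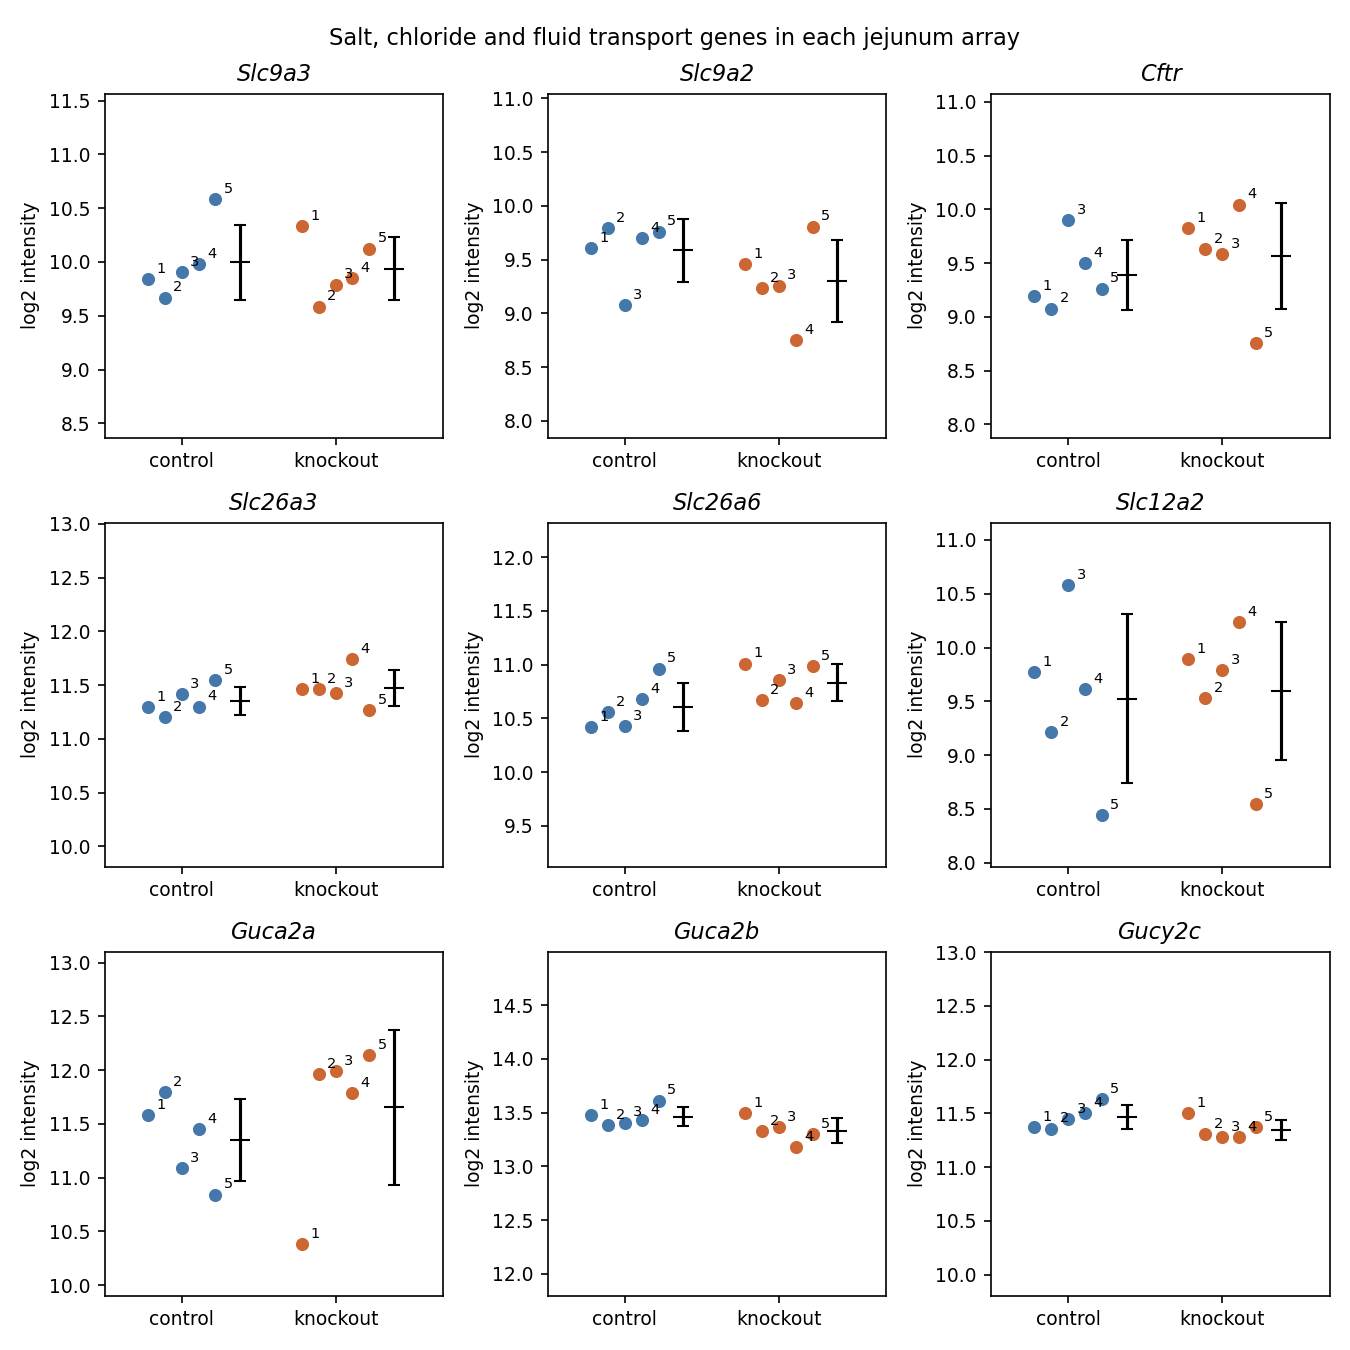
Log2 intensity of each of the 9 genes (vertical axis) in control (blue) and knockout (orange) arrays, with the replicate number beside each point and the mean ± SD (n = 5) as a black bar. Every panel spans the same range of log2 units, and the panels of Slc12a2 and Guca2a show wide scatter where those of Guca2b and Gucy2c show little.

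Uroguanylin and its receptor had the narrowest intervals. Guca2b stood at 13.50, 13.32, 13.36, 13.18 and 13.30 in knockouts 1 to 5 and at 13.48, 13.38, 13.41, 13.43 and 13.61 in controls 1 to 5. Knockouts 2 to 5 lay below every control, and knockout 1 lay above 4 of the 5 controls. The difference was -0.13 (SE 0.08, 95% confidence interval -0.31 to 0.05, limma adjusted p = 0.589, two-sided exact permutation p = 0.0873). A fall of more than 1.24-fold and a rise of more than 1.04-fold lie outside that interval, and with any 1 array left out the difference stayed between -0.17 and -0.09. Guca2b lay near the top of the scale, at 9255.4 to 12508 in linear intensity, where the highest value of any probe set was 15278.7. Whether differences are read in full at that level was not tested, so its small spread and narrow interval carry that limit. Gucy2c, the receptor, read 11.50, 11.31, 11.28, 11.28 and 11.37 in knockouts and 11.37, 11.36, 11.45, 11.50 and 11.63 in controls. Of its knockout arrays, 3 lay below all controls, while knockout 1 matched control 4. Its difference was -0.12 (SE 0.08, 95% confidence interval -0.30 to 0.07, limma adjusted p = 0.640, exact permutation p = 0.119), which leaves out a fall of more than 1.23-fold. Without control 5 it was -0.07, and without both control 5 and knockout 1 it was -0.11.

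Guanylin varied far more than uroguanylin. Guca2a was at 10.38 in knockout 1 and at 11.96, 11.99, 11.78 and 12.14 in knockouts 2 to 5, against 11.58, 11.79, 11.09, 11.45 and 10.84 in controls 1 to 5. Knockout 1 was the lowest of all 10 arrays, and 3 knockouts lay above every control. The difference was 0.30 (SE 0.30, 95% confidence interval -0.36 to 0.96, limma adjusted p = 0.758, exact permutation p = 0.444), and single arrays moved it both ways. It was 0.62 (SE 0.18, adjusted p = 0.134) without knockout 1, 0.17 without control 5, 0.18 without knockout 5, and 0.49 (SE 0.15, adjusted p = 0.180) without knockout 1 and control 5. Over the arrays Guca2a moved with the ileum list, with which it shares no gene. With each group's mean removed, Pearson's r was 0.97 and Spearman's rho 0.85 (10 arrays, exact permutation p within groups of 0.00111 and 0.00819, adjusted to 0.0194 and 0.0482 over 36 relations), and r was 0.72 without knockout 1 and control 5. The list of the proximal intestine gave the opposite sign (r = -0.92, rho = -0.82, exact p of 0.00458 and 0.00937, adjusted to 0.0330 and 0.0482), and r was -0.56 without those 2 arrays. With the ileum list mean as a covariate the difference in Guca2a turned to -0.61 (SE 0.14) and did not pass (adjusted p = 0.261). In that list mean only knockout 1 lay among the controls, and the other knockouts lay above all of them. The covariate fit therefore rests on knockout 1, the array lowest in Guca2a. Whether the knockout itself moves the list was not tested.

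The sodium-hydrogen exchangers did not pass either. Slc9a3, the main route of sodium uptake in the small intestine, was at 10.33, 9.58, 9.79, 9.85 and 10.12 in knockouts and at 9.84, 9.67, 9.91, 9.98 and 10.59 in controls. Knockout 1 and control 5 were the highest of their groups. The difference was -0.06 (SE 0.18, 95% confidence interval -0.45 to 0.32, limma adjusted p = 0.934, exact permutation p = 0.786), and it had the opposite sign without control 5 (0.09) or without knockout 2 (0.03). Without any other array it lay between -0.16 and -0.02, so neither its sign nor its size was fixed by these data. Slc9a2, a second apical exchanger, was at 9.46, 9.23, 9.26, 8.75 and 9.81 in knockouts and at 9.61, 9.79, 9.08, 9.70 and 9.76 in controls. Knockout 4 was the lowest array and knockout 5 the highest. Its difference of -0.28 (SE 0.19, 95% confidence interval -0.69 to 0.12, adjusted p = 0.590, exact permutation p = 0.230) was below the SD of either group. It was -0.15 without knockout 4, and -0.41 without control 3 or without knockout 5.

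Chloride uptake was represented by a pair of anion exchangers with higher values in knockout. Slc26a6, which also carries bicarbonate and oxalate, was at 11.01, 10.67, 10.86, 10.64 and 10.99 in knockouts and at 10.42, 10.56, 10.43, 10.68 and 10.96 in controls. Controls 1 to 3 lay below every knockout, control 4 above 2 knockouts and control 5 above 3. The difference was 0.22 (SE 0.12, 95% confidence interval -0.04 to 0.49, limma adjusted p = 0.505, exact permutation p = 0.119). Without control 5 it was 0.31 (SE 0.11, adjusted p = 0.331). Control 5 and knockouts 1 and 5, the arrays highest in Slc26a6, were also those with Paneth list means below 0 (-2.03, -0.83 and -0.66). The relation of Slc26a6 to that list had r = -0.92 and rho = -0.90 (exact p of 0.00188 and 0.00222, adjusted to 0.0194 and 0.0400), and r = -0.80 without knockout 1 and control 5. Slc26a3, whose loss causes congenital chloride diarrhoea in people, read 11.46, 11.46, 11.42, 11.74 and 11.27 in knockouts and 11.29, 11.20, 11.41, 11.30 and 11.55 in controls, and the groups overlapped. Its difference was 0.12 (SE 0.10, 95% confidence interval -0.10 to 0.34, adjusted p = 0.706, exact permutation p = 0.262), so that a rise of more than 1.27-fold lies outside the interval. Without knockout 4, the highest array, it was 0.05.

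Slc12a2 had the widest range of the 9 genes, and Cftr varied with it. Slc12a2, which brings sodium, potassium and chloride into the cell from the blood side, was at 9.89, 9.53, 9.79, 10.24 and 8.54 in knockouts and at 9.77, 9.21, 10.58, 9.62 and 8.44 in controls. Control 3 stood 4.40-fold above control 5, while the group means differed by 0.07 (SE 0.37, 95% confidence interval -0.73 to 0.88, limma adjusted p = 0.965, exact permutation p = 0.873). That interval holds a fall of up to 1.66-fold and a rise of up to 1.84-fold. The difference was 0.34 without knockout 5 or without control 3, and -0.20 without control 5. It was -0.09 without knockout 4, -0.0047 without control 2 and -4.89e-04 without knockout 1. Cftr, the channel that lets chloride and bicarbonate into the lumen, was at 9.83, 9.63, 9.58, 10.04 and 8.75 in knockouts and at 9.19, 9.08, 9.90, 9.50 and 9.26 in controls. Knockout 5 was the lowest array for Cftr, and the other 4 knockouts lay above 4 of the 5 controls. Its difference was 0.18 (SE 0.22, 95% confidence interval -0.30 to 0.66, adjusted p = 0.809, exact permutation p = 0.492), and it moved both ways with single arrays. It was 0.38 (SE 0.16, adjusted p = 0.338) without knockout 5 and 0.31 without control 3, but 0.06 without knockout 4, 0.10 without control 2 and 0.12 without knockout 1.

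Both secretory genes moved with the proliferation list, made of cell cycle genes of the crypt. For Slc12a2, r was 0.96 and rho 0.92 (10 arrays with group means removed, exact p of 3.47e-04 and 8.33e-04, adjusted to 0.0125 and 0.0300), and r was 0.88 without knockout 5 and control 3. For Cftr, r was 0.86 and rho 0.85 (exact p of 0.00924 and 0.00667, adjusted to 0.0431 and 0.0480), but r fell to 0.30 without those 2 arrays, so this relation rests on them. Slc9a2 ran against the list, with r = -0.89 and rho = -0.84 (exact p of 0.00215 and 0.00611, adjusted to 0.0194 and 0.0480) and r = -0.59 without the same arrays. The proliferation list mean spanned -0.50 to 0.67 among knockouts and -0.75 to 0.44 among controls, with 0 of 21 genes called and 19 of 21 higher in value. With that mean as a covariate, Slc12a2 differed by -0.69 (SE 0.15, adjusted p = 0.0644), Cftr by -0.22 (SE 0.15, adjusted p = 0.565) and Slc9a2 by 0.05 (SE 0.12, adjusted p = 0.897), each with the sign turned and none past the threshold. Of 36 relations between the 9 genes and the 4 lists (ileum, proximal intestine, proliferation, Paneth cell), chosen after the data were seen, 13 passed by Pearson's r after adjustment, 7 by Spearman's rho and 6 by both, which are the 6 given here for Guca2a, Slc26a6, Slc12a2, Cftr and Slc9a2. Of the 7 that passed by Pearson's r alone, several rest on knockout 1 and control 5. Without these arrays, r went from -0.75 to -0.14 for the ileum list with Gucy2c, from 0.76 to 0.31 for the proximal list with Gucy2c and from 0.79 to 0.36 for the proximal list with Guca2b. For the Paneth list with Slc12a2, r rose from 0.77 to 0.96. The Paneth list with Slc9a2 passed by Spearman's rho alone (rho = -0.84, exact permutation adjusted p = 0.0480). There r was -0.64, and -0.92 without knockout 1 and control 5. All these relations share the same arrays and are not independent of each other.

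**Figure D2:**
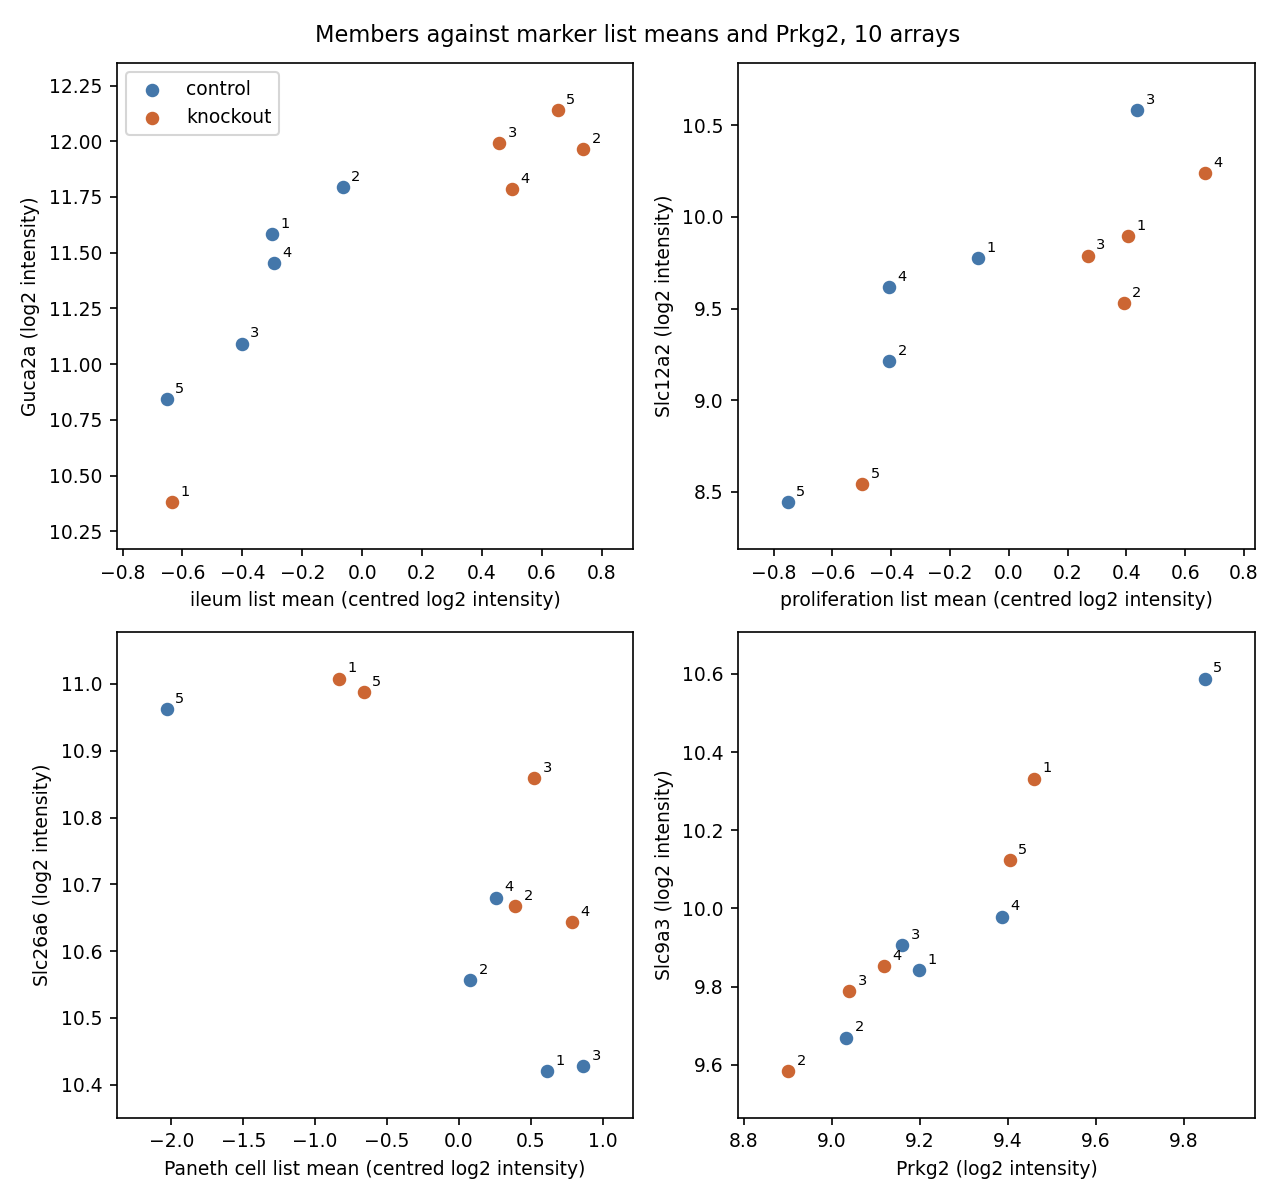
Log2 intensity of Guca2a, Slc12a2, Slc26a6 and Slc9a3 (vertical axes) against the mean of the ileum, proliferation and Paneth cell lists (centred log2 intensity) and against Prkg2 (log2 intensity), 1 point per array with its replicate number. Guca2a rises along the ileum axis, with knockout 1 among the controls at the low end, Slc12a2 rises along the proliferation axis, Slc26a6 falls along the Paneth axis and Slc9a3 rises with Prkg2.

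Among themselves, the 9 genes formed 36 pairs. With group means removed, 17 pairs had a positive and 19 a negative r, and 6 passed by Pearson's r with an exact permutation test within groups, all at an adjusted p of 0.0492. Of these, 3 joined Slc9a3, Slc26a6 and Gucy2c with positive r: 0.92 for Slc9a3 with Gucy2c (rho = 0.82, exact p of 0.00153 and 0.00917), 0.85 for Slc9a3 with Slc26a6 (rho = 0.68, exact p of 0.00819 and 0.0510) and 0.83 for Slc26a6 with Gucy2c (rho = 0.78, exact p of 0.00625 and 0.0158). Without knockout 1 and control 5 these were 0.69, 0.58 and 0.57. The other 3 joined the secretory genes and Slc9a2: 0.83 for Cftr with Slc12a2 (rho = 0.78, exact p of 0.00653 and 0.0153), -0.86 for Slc9a2 with Cftr (rho = -0.76, exact p of 0.00785 and 0.0185) and -0.83 for Slc9a2 with Slc12a2 (rho = -0.75, exact p of 0.00771 and 0.0192). The first of these was 0.40 without knockout 5 and control 3, and the others -0.76 and -0.71 without knockout 4 and control 3. By Spearman's rho 0 of 36 pairs passed after adjustment, and with any 1 array left out 0 or 1 did, so these calls rest on the full set of arrays. The ligands Guca2a and Guca2b had r = -0.69 and did not pass (exact p = 0.0690, adjusted p = 0.155), and without knockout 1 and control 5 the sign turned (r = 0.27). Guca2b was positive with Gucy2c (0.77), Slc26a6 (0.71) and Slc9a3 (0.70), but none of these pairs passed. Without the same arrays r was 0.10, 0.29 and -0.06.

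**Figure D3:**
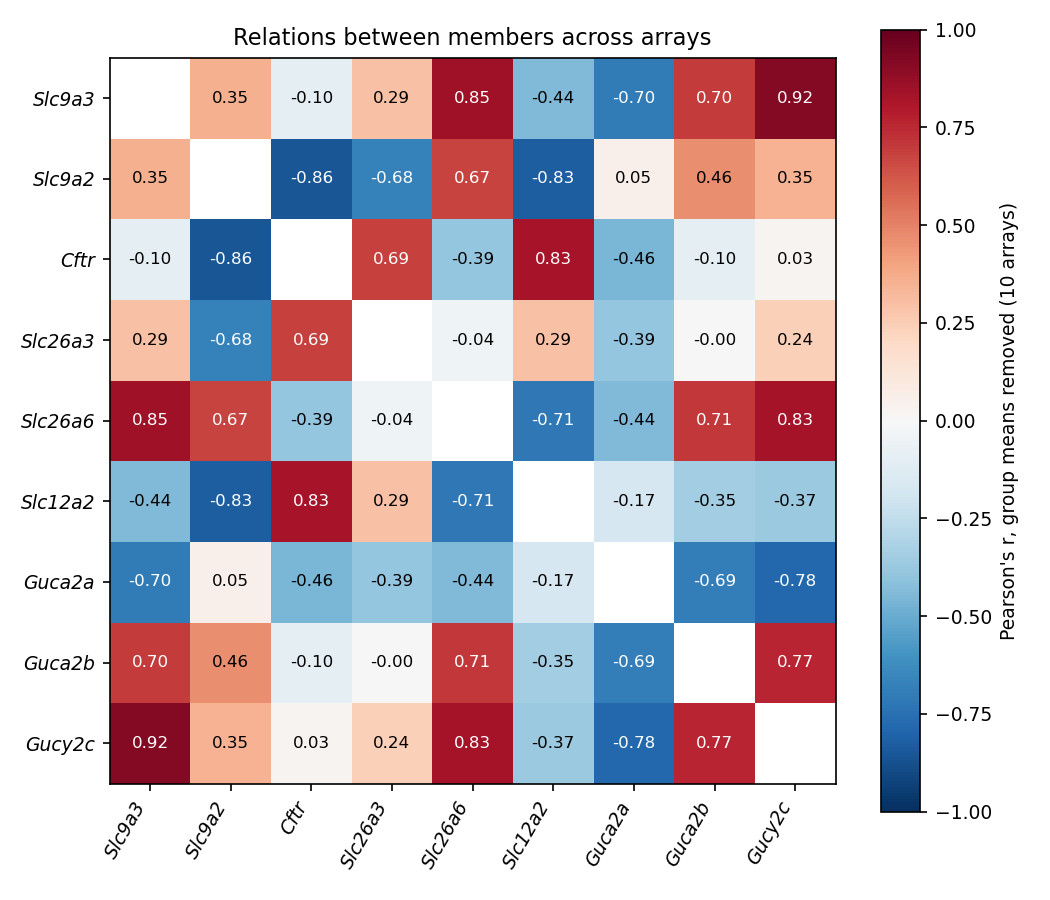
Pearson's r between each pair of the 9 genes over 10 arrays, after each group's mean was removed, from -1 (blue) to 1 (red). Slc9a3, Slc26a6, Guca2b and Gucy2c are positive with each other over all 10 arrays, and Slc9a2 is negative with Cftr and Slc12a2. The values of Guca2b with Slc9a3 and Gucy2c rest on knockout 1 and control 5. That of Guca2b with Slc26a6 falls from 0.71 to 0.29 without these arrays.

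For each of the 9 genes, the most similar of all brighter genes was sought by Pearson's r over the 10 arrays with group means removed. These values describe the arrays and carry no test. Slc9a3 was most like Prkg2, a kinase activated by cyclic GMP, with r = 0.98 (rho = 0.94), and r was 0.96 without knockout 1 and control 5. Prkg2 was at 9.46, 8.90, 9.04, 9.12 and 9.40 in knockouts and at 9.20, 9.03, 9.16, 9.39 and 9.85 in controls, so that its highest array was control 5 and its lowest knockout 2, as for Slc9a3. Its own difference was -0.14 (SE 0.16, limma adjusted p = 0.790). Slc12a2 was most like Sox9, a transcription factor of crypt cells (r = 0.996, 10 arrays), and then Pole2, a subunit of a DNA polymerase (r = 0.99). Guca2a was most like Naaladl1, an intestinal peptidase (r = 0.99), and Map3k6, a kinase (r = 0.98). Guca2b was most like Rabgap1l (r = 0.99) and the mitochondrial malate dehydrogenase gene Mdh2 (r = 0.98). Nearest to Cftr were Cers4, a ceramide synthase, and Mta1, both at r above 0.98, and nearest to Slc9a2 was the kinase Jak2 (r = 0.98), with Gm11127 second (r = 0.97). Slc26a6 lay closest to Ddhd2, a phospholipase (r = 0.98), and Lamp1, a lysosomal membrane protein (r = 0.98). Slc26a3 lay closest to Slc4a1ap and Smc6 (r = 0.97 for each), Gucy2c to Ammecr1l and Plscr4 (r = 0.97 and 0.96), and the second gene for Slc9a3 was the lysosomal protease Ctsz (r = 0.96).

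Beyond the 9, 69 of 78 listed genes of salt, bicarbonate and water transport were measured. Of these 69, 1 fell, Aqp1, and 68 did not pass (1.45% called, against 0.343% of all genes). An unadjusted p under 0.05 was reached by 12 of 69, where the share over all genes was 12.1%. Their median difference was 0.00223.

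Aqp1, a water channel of capillary walls and other membranes, was at 9.90, 9.72, 9.95, 9.10 and 9.78 in knockouts and at 10.88, 10.62, 10.33, 10.34 and 10.61 in controls. Every knockout lay below every control, as in 2.77% of all genes for 1 direction or the other. It was 1.82-fold lower in knockout (-0.87 on the log2 scale, SE 0.16, 95% confidence interval -1.22 to -0.52, limma adjusted p = 0.0469). Over 22 alternatives the difference lay between -0.93 and -0.72 and its adjusted p between 0.0320 and 0.437, and the call ended under 14 of them, among these the omission of any 1 array other than knockout 1. Of the fibroblast and vessel markers, 10 of 10 had higher values in knockout, 0 of 10 were called, and their mean spanned -0.09 to 0.56 among knockouts and -0.64 to 0.08 among controls. That list joins fibroblast with vessel genes, and its differences ran from 0.05 to 0.58. Its vessel genes, named after their values were seen, were Pecam1 at 0.06 (SE 0.15), Cdh5 at 0.13 (SE 0.16), Kdr at 0.05 (SE 0.22) and Lyve1 at 0.53 (SE 0.15). Whether vessel content differed was not tested. Among the other aquaporins, 0 of 6 passed, with Aqp11 at -0.37 (SE 0.11, adjusted p = 0.208).

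In the remaining lists 0 genes passed, and the examples that follow are the 2 of each list with the smallest p. Partners of the sodium-hydrogen exchangers had 0 of 7 called and a median of 0.07, with Chp2, an exchanger-binding calcium sensor, at 0.18 (SE 0.08) and ezrin (Ezr), which ties Slc9a3 to the cytoskeleton, at 0.13 (SE 0.15). For the sodium channel, the sodium pump and their regulators, 0 of 9 were called. Scnn1a, the alpha subunit of the epithelial sodium channel, lay between 7.08 and 7.42 in knockouts and between 7.47 and 7.99 in controls. The groups did not overlap, as in 2.77% of all genes for 1 direction or the other, and the difference of -0.50 (SE 0.11) missed the threshold (limma adjusted p = 0.0782). It passed without knockout 1 (-0.54, adjusted p = 0.0459), with quantile normalization (-0.53, adjusted p = 0.0393) and at a threshold of 0.1. Under the other 19 of 22 alternatives it did not pass, among them the ileum covariate (-0.36, adjusted p = 0.630) and the omission of knockout 2 (-0.52, adjusted p = 0.181). The kinase Sgk1, which raises the activity of that channel, was at -0.37 (SE 0.18).

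Potassium channels, which keep up the voltage that drives chloride out, had 0 of 8 called, with Kcnk5 at -0.38 (SE 0.13) and Kcnma1 at -0.21 (SE 0.15). The value of Kcnma1 depends on its probe set, being -3.20e-04 with the mean of all its probe sets. In other chloride routes and their kinases 0 of 12 were called, with the channel gene Clcn2 at 0.34 (SE 0.12) and the kinase gene Wnk4 at -0.26 (SE 0.10). Bicarbonate transporters and carbonic anhydrases had 0 of 10 called. Car4, a membrane-bound carbonic anhydrase, was at 10.08 to 10.85 in knockout and 9.78 to 10.19 in control, a difference of 0.49 (SE 0.15, adjusted p = 0.207). Car12, another, was at 0.55 (SE 0.19, adjusted p = 0.264).

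The list of cyclic nucleotide signalling, which also holds receptors of hormones and of nerve signals, had 0 of 16 called, 11 lower in value and a median of -0.12. Pde5a, a phosphodiesterase that degrades cyclic GMP, was at 9.12 in knockout 1 and 9.90 to 10.26 in the other knockouts, against 9.03 to 9.52 in controls. Knockout 1 was the only knockout among the controls. The difference of 0.55 (SE 0.19, limma adjusted p = 0.267) became 0.74 (SE 0.12) and passed without knockout 1 (adjusted p = 0.0168). With the ileum list mean as a covariate the difference was 0.02, in a fit that rests on knockout 1 for overlap of the groups. Chrm3, a muscarinic acetylcholine receptor through which nerves prompt secretion, was at 4.82 to 5.34 in knockout and 5.47 to 5.78 in control, without overlap (-0.48, SE 0.11, adjusted p = 0.0959).

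**Figure D4:**
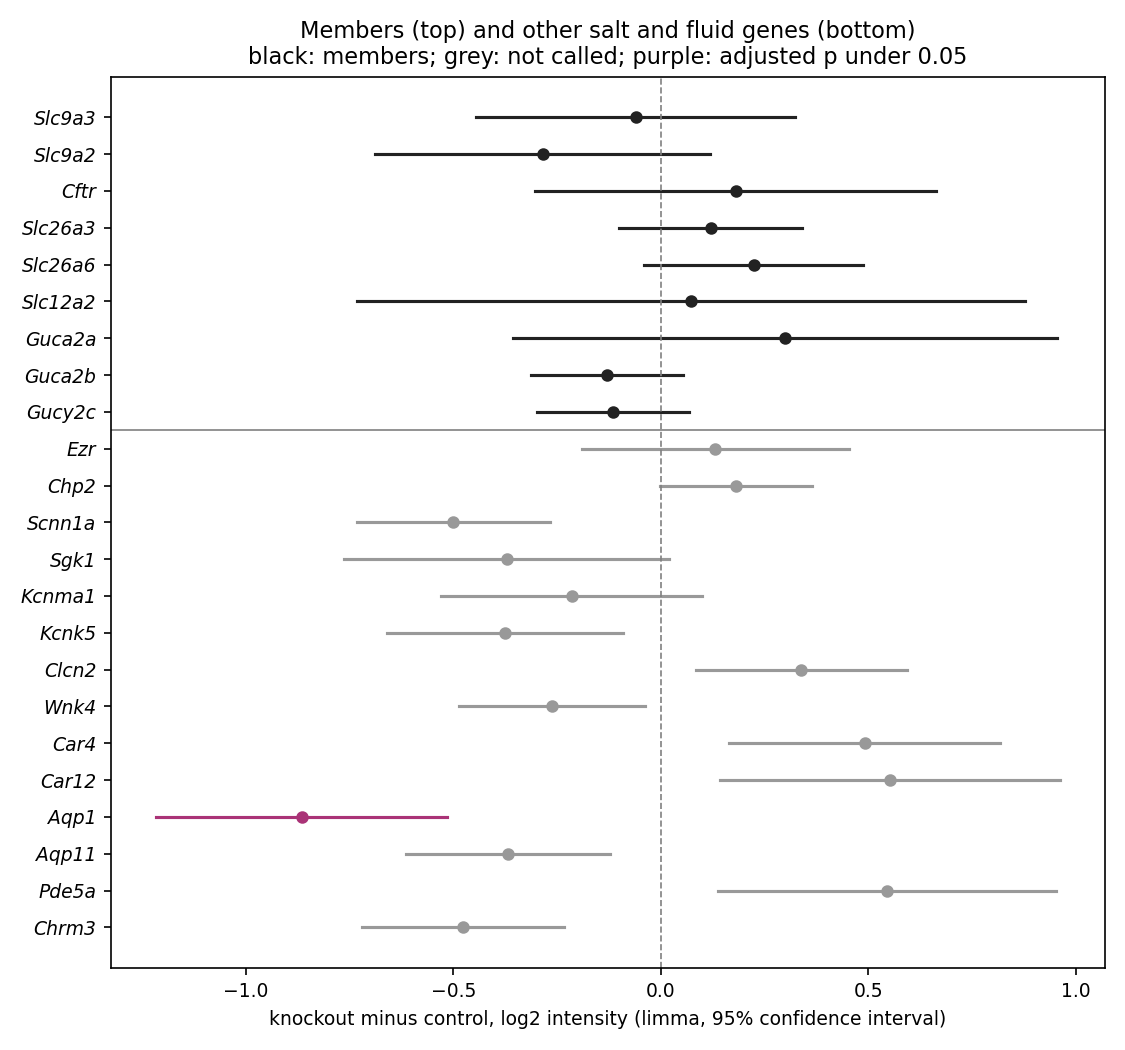
Knockout minus control on the log2 scale (horizontal axis) with its 95% confidence interval from limma, for the 9 genes (top, black) and the named genes of the other salt and fluid lists (bottom; grey, not called; purple, adjusted p under 0.05). All 9 intervals at the top cross 0, from narrow ones for Guca2b and Gucy2c to wide ones for Slc12a2 and Guca2a, and Aqp1 is the called gene, at -0.87.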

How the data were processed

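RNA from 10 jejunum samples was measured on Affymetrix arrays, with biotin-labelled target made from 400 ng of RNA, per the labels' protocols. Per the submitters' processing notes, the authors used Affymetrix Expression Console 1.4.1.46 and RMA. The deposited intensities are linear (1.8 to 15278.7, array medians 45.8 to 48.1), and log2 was taken before any test. RMA had made the arrays alike in distribution, so a shift shared by most genes would not be visible. No detection calls were used here, and precision is limited by the number of arrays. The labels do not state that each array is a separate animal, so the p-values measure the spread between samples, which may be technical in part.

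Of 41345 probe sets, 23521 carried 1 symbol, 1814 several and 16010 none in the platform annotation. The brightest probe set per gene was kept, leaving 22180 genes (21994 found in the RefSeq table by Entrez identifier). Groups, taken from the titles, were tested in R 4.3.3 by limma 3.58.1 (lmFit and eBayes), with Benjamini-Hochberg adjustment over all genes and a threshold of 0.05. Exact permutation tests used all 252 assignments of the arrays, or for relations all 14400 reorderings within groups. The scripts were tested on simulated data. The genes and lists were chosen with earlier results of these data known. Named were Pcyt1a, the 9 genes, in each transport list the called genes and the 2 with the smallest p, and the 2 genes most like each of the 9 among 11090 genes brighter than the median gene. The alternatives are given at the end.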

Additional observations from a re-analysis of the deposited data

Results flagged for a closer look

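Over 80 groups of 5 values (the 9 genes, Pcyt1a, the named transport genes and the marker list means, in each group), 9 held an array whose gap to its nearest neighbour exceeded 0.71 of the group's range. Chance gives about 1 in 20. Guca2a was at 10.38 in knockout 1, with the nearest knockout at 11.78. The ileum list mean was -0.64 in that array, with the nearest knockout at 0.46. Slc9a2 was at 9.08 in control 3, with the nearest control at 9.61, and Aqp1 at 9.10 in knockout 4, with the nearest knockout at 9.72. Control 5 was far from the other controls in the Paneth cell list (-2.03, nearest 0.08), the enteroendocrine list (-0.14, nearest 0.21) and the goblet cell list (-0.19, nearest 0.10). Control 4 was far from the others in smooth muscle genes, at 1.08 against -0.05. The red blood cell list, of which 1 of 6 genes was measured, was at 0.50 in control 1, with the nearest control at 0.08. The difference in Guca2a without knockout 1, and that in Slc9a2 without control 3, are given with those genes.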

How the results depend on the processing

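Over 22 alternatives, 0 of the 9 genes passed. The differences of Slc26a3, Slc26a6 and Guca2b, and of Pcyt1a, which passed under all 22, kept their direction. With the ileum list mean as a covariate, signs turned for Slc9a3 (0.31), Guca2a (-0.61), Gucy2c (0.00952) and, among the other transport genes, Ezr (-0.14). Only knockout 1 lay among the controls in that list mean, so all values with this covariate rest on that array. With the proliferation list mean, signs turned for Slc9a3 (0.0948), Slc9a2 (0.0524), Cftr (-0.22) and Slc12a2 (-0.69). Leaving out 1 array moved Slc9a3 between -0.16 and 0.0874 and Slc12a2 between -0.20 and 0.34, and without knockout 1 and control 5 together, chosen after seeing the data, Slc12a2 stood at -0.27. The count of all called genes, 76, was 11 to 268 with 1 array left out, 142 with array weights, 27 with the replicate number as a block, 6 with the ileum and 135 with the proliferation covariate, 186 without knockout 1 and control 5, 39 over all probe sets and 261 at a threshold of 0.1. Of the 69 other transport genes, 1 fell in the main analysis. The number that fell was 2 with quantile normalization, 0 with the replicate block, the ileum covariate, all probe sets or without knockout 1 and control 5, 3 at a threshold of 0.1 and 0 to 2 with 1 array left out. The number that rose was 1 with the proliferation covariate or without knockout 1 and control 5, and 0 to 1 with 1 array left out. Over all genes the shared replicate numbers showed no pairing: same-numbered arrays had correlations of deviations between -0.135 and 0.125, with 1 of 5 above 0.1, and 0 of 5 knockout arrays correlated best with their own number. These correlations cannot exclude a pairing. With the number as a block, the SE went from 0.37 to 0.18 for Slc12a2 and from 0.18 to 0.13 for Slc9a3. It went from 0.10 to 0.12 for Slc26a3. The block ended the call of Aqp1 (adjusted p = 0.0521) at the same difference of -0.87. Of 36 pairs among the 9 genes, 6 passed by Pearson's r, 0 by Spearman's rho, 1 with quantile normalization and 0 to 1 with 1 array left out. The 9 genes have no other probe set with 1 symbol, so that alternative gave no value. The cause of these changes was not tested. With 5 arrays a group, the interval of each of the 9 genes crosses 0, and a true difference of any size inside it remains possible.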

Other observations

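Some genes of bicarbonate handling outside the naming rule, chosen after their values were seen, are given as values. Car13, a cytosolic carbonic anhydrase, was at 10.47 ± 0.36 (SD, n = 5) in knockout and 10.00 ± 0.39 in control, a difference of 0.47 (SE 0.20) that did not pass (limma adjusted p = 0.376). Slc4a4, a sodium bicarbonate cotransporter, was at 10.28 ± 0.41 and 9.93 ± 0.14 (difference 0.35, SE 0.17, adjusted p = 0.443). Slc4a5, another sodium bicarbonate cotransporter, went the other way in value, at 7.48 ± 0.54 and 8.06 ± 0.56 (difference -0.58, SE 0.29, adjusted p = 0.458). Car2, the widespread cytosolic carbonic anhydrase, was at 6.92 ± 0.98 and 7.43 ± 0.43, a difference of -0.50 (SE 0.39, adjusted p = 0.673) with the larger spread in knockout.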
